A study of Mus musculus with 38 samples.

Results

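The data described here are the response of mouse embryonic fibroblasts (MEFs) carrying the factors JDP2, GLIS1 and ESRRB (JGE) to the morphogen BMP4. The genes compared were those with an FPKM (sequenced fragments scaled for transcript length and for library size) of at least 1 in the library with BMP4, in the library without it, or in both. They numbered 14235 of the 37108 rows of the expression table, after 1439 microRNAs, small nucleolar RNAs and other short RNAs had been set aside. Both libraries came from E13.5 MEFs, taken in the study from embryos of a cross of OG2 and 129S4/SvJaeJ mice, that had been infected with retroviruses carrying *Jdp2*, *Glis1* and *Esrrb*, with no *Sall4* and no *Oct4* virus. Both cultures were kept in iCD3, a chemically defined reprogramming medium with TV, vitamin C, mLIF, bFGF, the GSK3 inhibitor CHIR99021, the DOT1L inhibitor SGC0946, an LSD1 inhibitor given in the labels as LSD1-HCL and the ROCK inhibitor Y27632. The BMP4+ culture also had BMP4 at 10 ng/ml for 7 days, and the BMP4− culture had none, and both were collected at day 7 for polyA RNA sequencing. The same table holds a BMP4+ and a BMP4− library of day 7 for each of 3 other factor sets, namely JGES (JGE with *Sall4*), JGEO (JGE with *Oct4*) and JGESO (with both).

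There was 1 library per condition, so no difference given here has a replicate check, and no p-value or error can be attached to any of them. Read depth is unknown, because the values are FPKM and not counts. A change is the difference of log2(FPKM + 1), BMP4+ minus BMP4−, and it understates the change of genes at low FPKM. A gene is said to have risen or fallen where the size of this difference was 1 or more, which is 2-fold on that scale. For any other gene only its values are given. A gene under 1 FPKM without BMP4 was measured only through the BMP4+ library, and by this rule it could not fall. In bulk RNA, more cells of a type and more RNA per cell cannot be told apart. Retroviruses reach cells unevenly, so a library may average over cells with and without each factor.

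BMP4 binds a pair of type II and type I receptors, and the type I receptor phosphorylates SMAD1, SMAD5 and SMAD9, which enter the nucleus with SMAD4. The genes that respond most directly include the *Id* genes, whose products hold back basic helix-loop-helix factors, the inhibitory SMADs, and homeobox genes such as *Msx1* and *Msx2*. In embryos the pathway patterns mesoderm and extra-embryonic tissue and drives bone and vessel formation, and in fibroblast cultures it is often set against TGF-β, which acts through SMAD2 and SMAD3 and raises matrix and contractile genes.

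Promoters of BMP-SMAD target genes are shown first, because these genes are the best-known direct targets of the pathway. Of the 12 such genes that rose, 7 had an entry in the RefSeq promoter table (build GRCm38.p6) that could be used, and the 250 bases before the start of *Id3* and of *Msx1* lay outside every annotated gene. The *Id3* window is chr4:136143572-136143821 on the plus strand and the *Msx1* window is chr5:37824586-37824835 on the minus strand, both written 5′ to 3′ up to the start site, with no capitals because neither SMAD motif searched was in them.
Id3: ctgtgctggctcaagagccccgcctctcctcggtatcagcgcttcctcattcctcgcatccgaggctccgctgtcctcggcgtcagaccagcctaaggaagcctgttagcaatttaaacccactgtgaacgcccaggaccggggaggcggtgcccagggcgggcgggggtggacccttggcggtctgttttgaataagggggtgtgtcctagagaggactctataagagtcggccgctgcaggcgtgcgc
Msx1: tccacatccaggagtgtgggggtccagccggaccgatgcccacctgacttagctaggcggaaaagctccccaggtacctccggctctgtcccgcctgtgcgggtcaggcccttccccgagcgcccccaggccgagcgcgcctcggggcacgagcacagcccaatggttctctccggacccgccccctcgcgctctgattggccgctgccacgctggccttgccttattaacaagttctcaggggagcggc
These are followed by 30 bases around each match to a SMAD motif among the BMP-SMAD target genes that rose, with the match in capitals. The motifs were GGCGCC, a GC-rich site bound by SMAD1 and SMAD5, and GTCTAGAC, the palindromic SMAD box, each equal to its own reverse complement. The 30 bases are chr9:64022045-64022074 (minus strand) for *Smad6*, chr3:54755519-54755548 (plus strand) for *Smad9* and chr13:48260956-48260985 (plus strand) for *Id4*. The *Smad6* match starts 4 bases before the start site and runs across it. The *Smad9* match starts 51 bases before its start site and the *Id4* match 148 bases before its own.
Smad6: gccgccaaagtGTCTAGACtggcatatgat
Smad9: gcacggccgcctGGCGCCcttccagcgcgg
Id4: ctcgggttgcccGGCGCCccgccctcgcca
Over the 300 bases from 250 before to 50 after the start, GGCGCC was in 24.7% of the 10575 measured genes with an entry, in 88 of 352 genes that rose and in 19.3% of 450 that fell. Among BMP-SMAD target genes it was in 3 of the 8 with an entry (*Id2*, *Id4* and *Smad9*). GTCTAGAC was in 0.293% of all entries, and *Smad6* was the 1 target gene that held it. A match is a description of letters and says nothing of binding.

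With BMP4, 525 genes rose (3.69% of those measured) and 621 fell (4.36%). The median change over all 14235 genes was −0.05, and the middle 90% of genes lay between −0.95 and 0.86. The median rise was 1.37 and the median fall −1.27. The 98 rises of 2 or more on the log2 scale outnumbered the 55 falls of that size, whereas at 0.5 or more 1690 rises stood against 2524 falls. The excess of falls depends on the scaling: with the libraries set to the same median ratio, 569 rose and 576 fell, and with FPKM rescaled to a larger common sum 853 rose and 1207 fell.

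**Figure D1:**
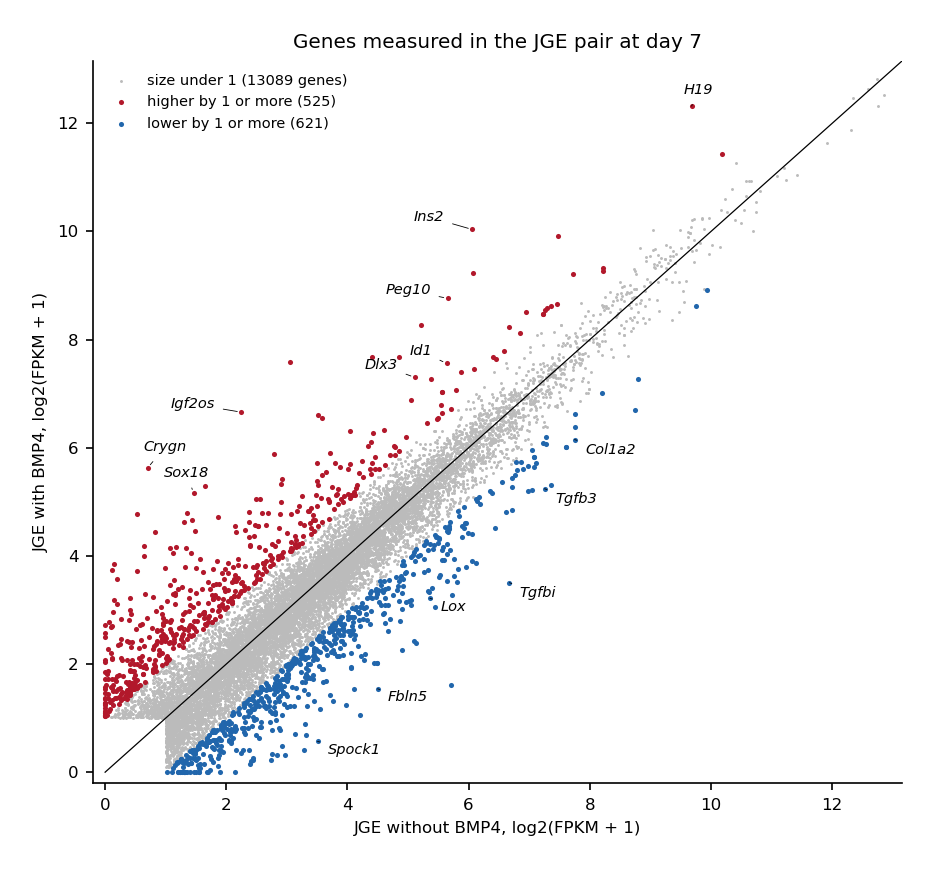
Each point is 1 of the 14235 genes measured, at log2(FPKM + 1) in the BMP4− library (horizontal axis) and in the BMP4+ library (vertical axis), with the line of equal values. The 525 red points lie higher by 1 or more and the 621 blue points lower by 1 or more, and *H19*, *Ins2* and *Tgfbi* are among the points farthest from the line for their level.

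The labels and libraries were checked on genes of known origin. *Jdp2* stood at 1722 FPKM in the BMP4− library and at 1499 FPKM in the BMP4+ library, and *Esrrb* at 561 and 369 FPKM, so both delivered factors were abundant on either side. *Glis1* was at 0.118 and 0.525 FPKM, and at most 1.10 FPKM in any of the 8 libraries, so the delivered *Glis1* was not visible in these values, which do not tell whether it was delivered, since whether the construct is counted in this row is not known. *Pou5f1*, not delivered, was listed at 0 and at 0.0970 FPKM, and *Sall4*, not delivered either, rose from 2.09 to 6.23 FPKM. The libraries held *Xist* (10.2 and 11.8 FPKM) together with the Y-linked gene *Ddx3y* (2.83 and 2.08 FPKM), as in a pool of embryos of both sexes. No gene of the reference groups rose or fell, that is none of 12 housekeeping genes and none of 13 measured subunits of the NuRD complex, with medians of −0.06 and 0.00; over all genes 3.69% rose and 4.36% fell.

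The BMP-SMAD target genes went up as a group. Of 16 such genes, all measured, 12 rose and none fell, with a median change of 1.39, against 3.69% of all genes. The inhibitors of differentiation came first in level: *Id3* went from 175 to 401 FPKM and *Id1* from 48.8 to 188 FPKM. *Id4* went from 6.98 to 20.4 FPKM, while *Id2* stood at 84.6 and 92.1 FPKM, a difference of 0.12. The Id genes therefore differed among themselves, with *Id2* the member that stayed within the fold.

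The feedback inhibitors of the pathway followed. *Smad6*, which blocks the type I receptor, rose from 19.8 to 47.6 FPKM, and *Bambi*, a decoy receptor without a kinase, from 6.50 to 39.2 FPKM. *Smad7*, which inhibits TGF-β as well as BMP signalling, was at 26.2 and 33.3 FPKM, a difference of 0.33. *Smad9*, the BMP SMAD that is itself a target, rose from 1.41 to 4.72 FPKM. Of the inhibitory SMADs, *Smad6* was thus past the fold and *Smad7* was not, and *Bambi* was past it as well.

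The homeobox, T-box and helix-loop-helix genes of the list ran from a difference of −0.05 to the largest of the list. *Msx2*, a regulator of limb, skull and neural crest, rose from 1.25 to 16.9 FPKM, a change of 2.99, and *Msx1* from 10.3 to 40.7 FPKM. *Dlx3*, a homeobox gene of placenta, hair and bone, rose from 33.6 to 157 FPKM. *Tbx3* rose from 6.57 to 41.8 FPKM, whereas *Tbx2* was at 30.6 and 29.4 FPKM. *Atoh8* rose from 3.07 to 11.9 FPKM and *Hey1*, a target shared by BMP and Notch, from 17.2 to 45.5 FPKM. *Dlx5* was at 0.117 and 1.11 FPKM, a difference of 0.92, so that 3 of the 4 genes short of the fold were at or above 26.2 FPKM without BMP4 and the fourth was barely detected.

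**Figure D2:**
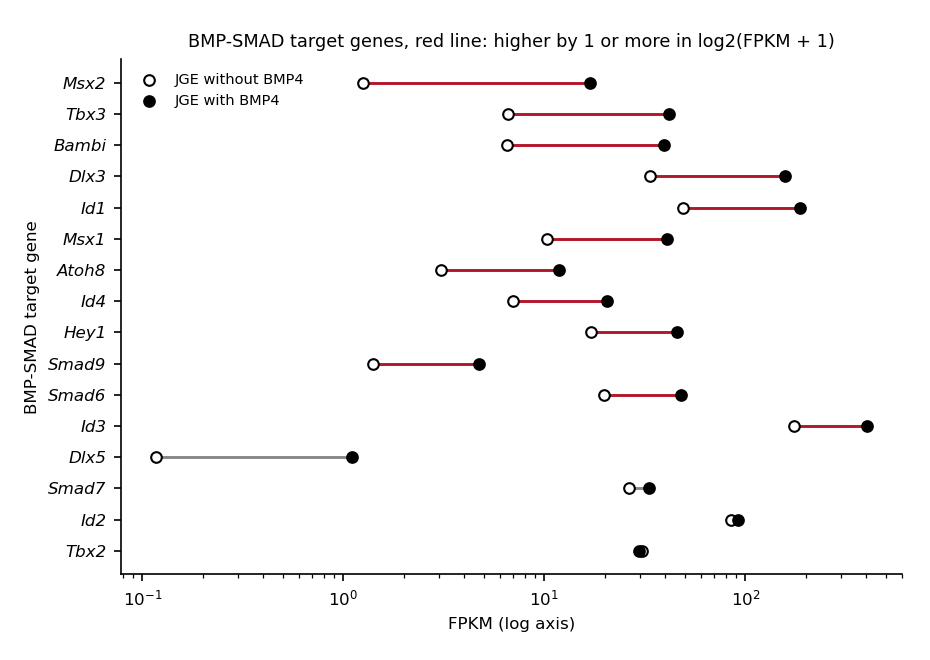
FPKM on a log axis of the 16 BMP-SMAD target genes in the BMP4− library (open points) and the BMP4+ library (filled points), in order of change. Red lines join the 12 genes that rose, from *Id3* (175 to 401 FPKM) to *Msx2* (1.25 to 16.9 FPKM), and grey lines the 4 that did not.

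Around *Tbx3* the rise extended to its neighbours on chromosome 5, which were looked up after their values had been seen. The non-coding transcripts *AW549542*, *Tbx3os1* and *Tbx3os2* went from 0.819 to 4.35 FPKM, from 0.398 to 2.99 FPKM and from 0.0931 to 2.07 FPKM. The start of *AW549542* is at 119570129 and that of *Tbx3* at 119670534, with *Tbx3os1* overlapping the start of *Tbx3*. The strand setting of the counting is not given in the sources used here, so reads of overlapping genes on opposite strands may not have been separated.

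Among the components that carry the signal 1 receptor gene rose and 1 SMAD gene fell. *Smad9*, counted above with the target genes, rose. Of 10 receptor and co-receptor genes measured only *Acvrl1*, which encodes the endothelial type I receptor ALK1, rose, from 1.73 to 7.34 FPKM, against 3.69% of all genes. *Bmpr1a* was at 12.8 and 8.77 FPKM, *Acvr1* at 8.72 and 5.46 FPKM and *Bmpr2* at 13.3 and 10.6 FPKM, and the median of the receptors was −0.33. *Smad5* fell from 58.1 to 22.6 FPKM, while *Smad1* was at 10.3 and 11.2 FPKM and *Smad4* at 16.1 and 16.0 FPKM. *Smad5* was the most abundant of the 3 without BMP4 and stayed so with it.

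The ligands and the secreted antagonists moved in both directions. Endogenous *Bmp4* was at 33.0 FPKM without and 38.6 FPKM with added BMP4, a difference of 0.22. *Bmp7* fell from 12.7 to 4.79 FPKM and *Gdf6* from 13.2 to 3.43 FPKM, and *Gdf5*, a ligand of joint formation, rose from 0.0815 to 3.32 FPKM. Among 13 antagonists measured *Noggin* (*Nog*) alone rose, from 0.917 to 6.59 FPKM, and 3 fell, against 3.69% and 4.36% of all genes. *Nbl1* fell from 104 to 28.0 FPKM, *Fst* from 32.9 to 11.7 FPKM and *Grem1* from 13.4 to 5.04 FPKM. The 3 antagonists that fell had been at 13.4 FPKM or more. *Nog*, under 1 FPKM without BMP4, was measured only through the BMP4+ library and by the rule used could not have fallen.

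The TGF-β response genes went the other way. Of 12 measured, 6 fell and 1 rose, with a median of −0.91, against 4.36% of all genes that fell. *Tgfbi*, a secreted matrix protein named for its induction by TGF-β, fell from 101 to 10.4 FPKM, a change of −3.17. *Tgfb3*, a ligand, fell from 152 to 36.8 FPKM, *Ccn2* from 194 to 63.4 FPKM and *Ccn1* from 134 to 56.1 FPKM. *Pmepa1* and *Ltbp2* also fell, by 1.66 and 1.46 on the log2 scale. *Tgfb1* rose by 1.13 on the log2 scale, to 44.9 FPKM. The list thus held members in both directions, and its 2 ligands past the fold went opposite ways.

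Many fibroblast matrix genes were lower too. Of 20 genes, all measured, 8 fell (against 4.36% of all genes) and none rose, 17 were lower and the median was −0.88. *Col1a1* fell from 293 to 128 FPKM, *Col1a2* from 214 to 70.1 FPKM and *Col3a1* from 118 to 48.0 FPKM, the 3 chains of the main fibrillar collagens. *Lox*, which cross-links collagen, fell from 40.1 to 8.30 FPKM, and *Fbln2*, *Fbn1*, *Col6a1* and *Col6a2* fell by 1.17 to 1.45. The rest did not reach the fold: *Vim* was at 394 and 208 FPKM and *Fn1* at 300.0 and 392 FPKM, while the mesenchymal receptors *Pdgfra* and *Pdgfrb* were at 21.9 and 35.1 FPKM and at 33.2 and 37.3 FPKM. The summed FPKM of the list went from 1827 to 1137. Matrix genes were mostly lower, and *Pdgfra* and *Pdgfrb* were still expressed.

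Contractile genes and matrix proteases showed the same direction. All 9 contractile genes measured were lower, with a median of −0.83, and *Acta2* (15.5 to 5.09 FPKM), *Cnn2* (154 to 66.5 FPKM) and *Lmod1* (2.70 to 0.337 FPKM) fell. Of 14 proteases and related genes 5 fell, against 4.36% of all genes, namely *Mmp3*, *Mmp10*, *Mmp13*, *Plau* and *Plat*. *Plau*, the urokinase gene, went from 39.7 to 9.05 FPKM and *Mmp3*, stromelysin 1, from 8.84 to 0.855 FPKM. *Mmp9*, the gelatinase of remodelling vessels and bone, was the exception and rose from 27.8 to 203 FPKM. Among mesenchymal transcription factors *Six2* rose from 15.5 to 78.2 FPKM and *Snai1* from 16.3 to 35.1 FPKM, and *Osr1* and *Osr2* fell by 1.20 and 1.10, so this list had no common direction (median −0.23).

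**Figure D3:**
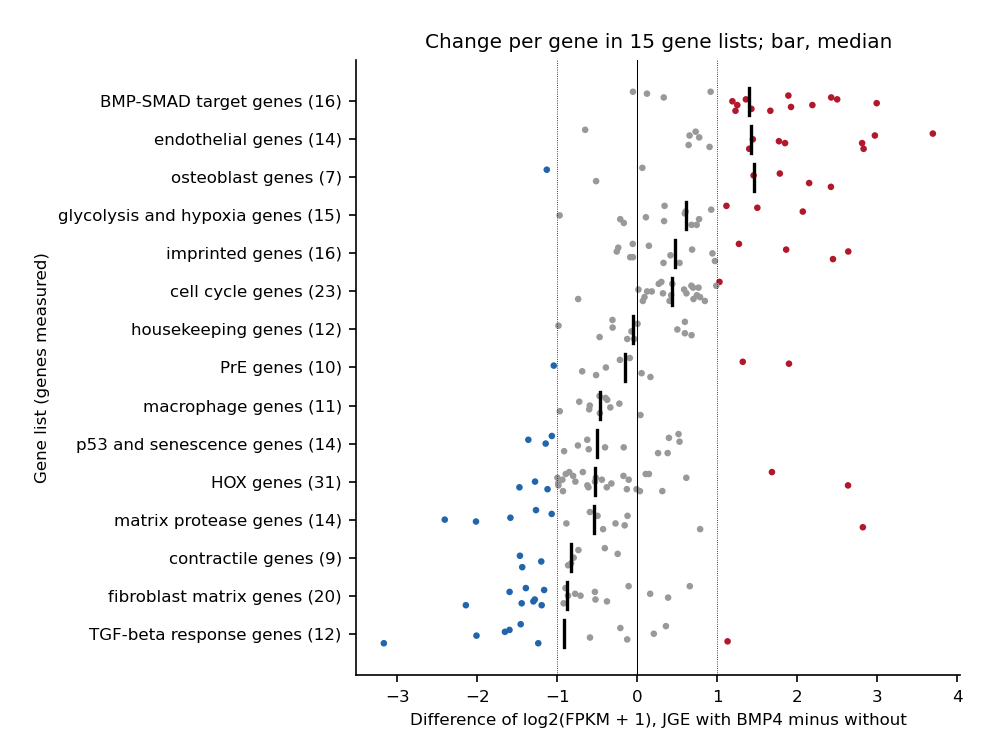
Each point is a measured gene of 1 of 15 lists, placed by its difference of log2(FPKM + 1), BMP4+ minus BMP4−; black bars are list medians, dotted lines mark 1 and −1, red points rose and blue points fell. BMP-SMAD target and endothelial genes have medians of 1.39 and 1.42, osteoblast genes 1.45 over the 7 measured but 0.13 over all 12, housekeeping genes −0.06, and fibroblast matrix and TGF-β response genes −0.88 and −0.91.

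Among genes of the endothelium, 8 of 14 measured rose, against 3.69% of all genes, and none fell. Of the 8, *Cdh5*, *Sox7*, *Pecam1*, *Tal1* and *Tie1* were measured only through the BMP4+ library. The median of the 14 was 1.42; it was 1.40 without a filter on low values, 1.45 with the libraries set to the same median ratio, 2.76 with a pseudocount of 0.1, 2.29 among genes of at least 5 FPKM and 2.19 with FPKM rescaled to a larger common sum. *Cdh5*, the cadherin of endothelial junctions, went from 0.0935 to 6.77 FPKM, and the tight junction gene *Cldn5* from 10.9 to 92.6 FPKM. *Sox18* went from 1.75 to 34.6 FPKM and *Sox7* from 0.945 to 5.64 FPKM, both transcription factors of endothelial commitment. *Egfl7* went from 1.51 to 16.6 FPKM, *Pecam1* from 0.0809 to 1.94 FPKM and *Tal1* from 0.0348 to 1.73 FPKM, and *Tie1*, listed at 0 without BMP4, was at 2.60 FPKM with it. *Kdr* stood at 10.9 and 18.7 FPKM, so it was expressed on both sides, while *Erg* was listed at 0 and at 0.344 FPKM and *Emcn* was at 3.92 and 2.13 FPKM. The summed FPKM of all 15 genes of the list went from 69.9 to 259, of which *Plvap*, at 32.3 and 61.3 FPKM, and *Cldn5* made up the larger part.

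The 15 largest rises held *Sox18* and 3 further genes known from vessels that are not on the endothelial list. *Aplnr*, the apelin receptor, went from 0.106 to 13.5 FPKM, *Icam2*, an adhesion molecule of endothelium, from 0.0801 to 12.3 FPKM, and *Gja4*, connexin 37 of arteries, from 1.46 to 23.6 FPKM. They were picked out after their values had been seen and add nothing to the count of the list. *Aplnr*, *Icam2*, *Cdh5*, *Pecam1*, *Tal1* and *Tie1* were each at or under 0.106 FPKM in the BMP4− library and between 1.73 and 13.5 FPKM in the BMP4+ library. Of 10 Notch genes measured 2 rose and 1 fell, against 3.69% and 4.36% of all genes. *Nrarp* (4.24 to 17.1 FPKM) and *Hey1* rose and *Notch3*, the receptor of mural cells, fell from 11.5 to 4.40 FPKM. *Dll4*, outside the Notch list and named after its value had been seen, rose from 0.438 to 12.2 FPKM. *Icam2* lies on chromosome 11 beside *Prr29*, *Scn4a* and *Cd79b*, looked up after their values had been seen, which also rose, from at most 0.367 FPKM to between 1.96 and 4.32 FPKM.

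Genes of bone formation went both ways. Of 12 osteoblast genes 7 were measured; 4 of these rose, against 3.69% of all genes, and 1 fell. Some were measured only through the BMP4+ library, and the median was 1.45 over the 7 and 0.13 over all 12. *Sp7*, osterix, the transcription factor of osteoblast commitment, went from 0.153 to 4.11 FPKM, *Alpl*, tissue-nonspecific alkaline phosphatase, from 1.20 to 10.8 FPKM and *Ibsp* from 0.644 to 4.65 FPKM. *Runx2* was at 1.28 and 1.38 FPKM, and *Bglap*, *Dmp1* and *Mepe* were under 0.5 FPKM in both libraries. *Spp1*, osteopontin, the most abundant gene of the list, fell from 215 to 97.7 FPKM, and the summed FPKM of the list went from 223 to 126. Cartilage genes held no rise: *Col11a1* and *Comp* fell, by 1.68 and 1.48, and *Sox9* was at 16.7 and 14.7 FPKM.

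The imprinted domain of *H19* and *Igf2* on chromosome 7 held the gene with the highest FPKM among all that rose. *H19*, a non-coding RNA expressed from the maternal copy (142575530 to 142578146), went from 821 to 5112 FPKM, and *Igf2*, the fetal growth factor expressed from the paternal copy (142650768 to 142666816), from 177 to 968 FPKM. *Igf2os*, which overlaps *Igf2* on the opposite strand (142659680 to 142670356), went from 3.76 to 99.995 FPKM, and *Ins2*, the next gene, from 65.8 to 1049.8 FPKM. The neighbours were looked up after their values had been seen. The rise reached *Lsp1* (6.36 to 26.4 FPKM) and *Tnnt3* (0.742 to 4.06 FPKM) on the other side of *H19*, while *Mrpl23*, between *Tnnt3* and *H19*, was at 12.9 FPKM in either library. *Th*, *Cd81*, *Tssc4* and *Kcnq1*, beyond *Ins2*, differed by −0.27 to 0.30, and *Phlda2*, farther on, rose from 1.22 to 7.68 FPKM. *Ins1*, on chromosome 19, has a transcript close to that of *Ins2* and went from 0.105 to 8.04 FPKM, so its value may hold reads of *Ins2*.

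Other imprinted genes were mixed. Of 16 on the list 4 rose, against 3.69% of all genes, and none fell: *H19*, *Igf2*, *Dlk1* (8.47 to 33.4 FPKM) and *Grb10* (54.3 to 132 FPKM). *Mest* was at 85.0 and 167 FPKM, *Cdkn1c* at 823 and 1188 FPKM, and *Peg3*, *Gnas* and *Snrpn* differed by −0.06 to 0.41. *Peg10*, a retrotransposon-derived imprinted gene that is not on the list, went from 49.4 to 433 FPKM and was named after its value had been seen.

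Along the HoxA cluster on chromosome 6 the change differed between its ends. *Hoxa5* fell from 5.30 to 1.27 FPKM, *Hoxa7* from 4.64 to 1.33 FPKM and *Hoxa9* from 5.28 to 1.89 FPKM. *Hoxa10* was at 13.1 and 13.4 FPKM and *Hoxa11* at 6.58 and 10.6 FPKM. *Hoxa13*, the last gene of the cluster, which marks the distal limb and hindgut, rose from 1.68 to 15.7 FPKM. The transcripts beyond it, named after their values had been seen, went the same way: *Hottip* was listed at 0 and at 1.90 FPKM and *Evx1* went from 0.0436 to 5.82 FPKM, while *Hoxa11os* went from 3.49 to 10.6 FPKM. The 18 measured genes of this stretch thus ran from lower at *Hoxa9* and before, with *Hoxa6* the exception at 1.08 and 1.30 FPKM, to higher from *Hoxa11* on. Over all 4 clusters 24 of 31 measured HOX genes were lower (median −0.53, and −0.83 with a pseudocount of 0.1), *Hoxc9* rose from 2.42 to 9.98 FPKM, and *Hoxd13* and *Hoxb13* were at 3.07 and 1.66 FPKM and at 1.63 and 1.33 FPKM.

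**Figure D4:**
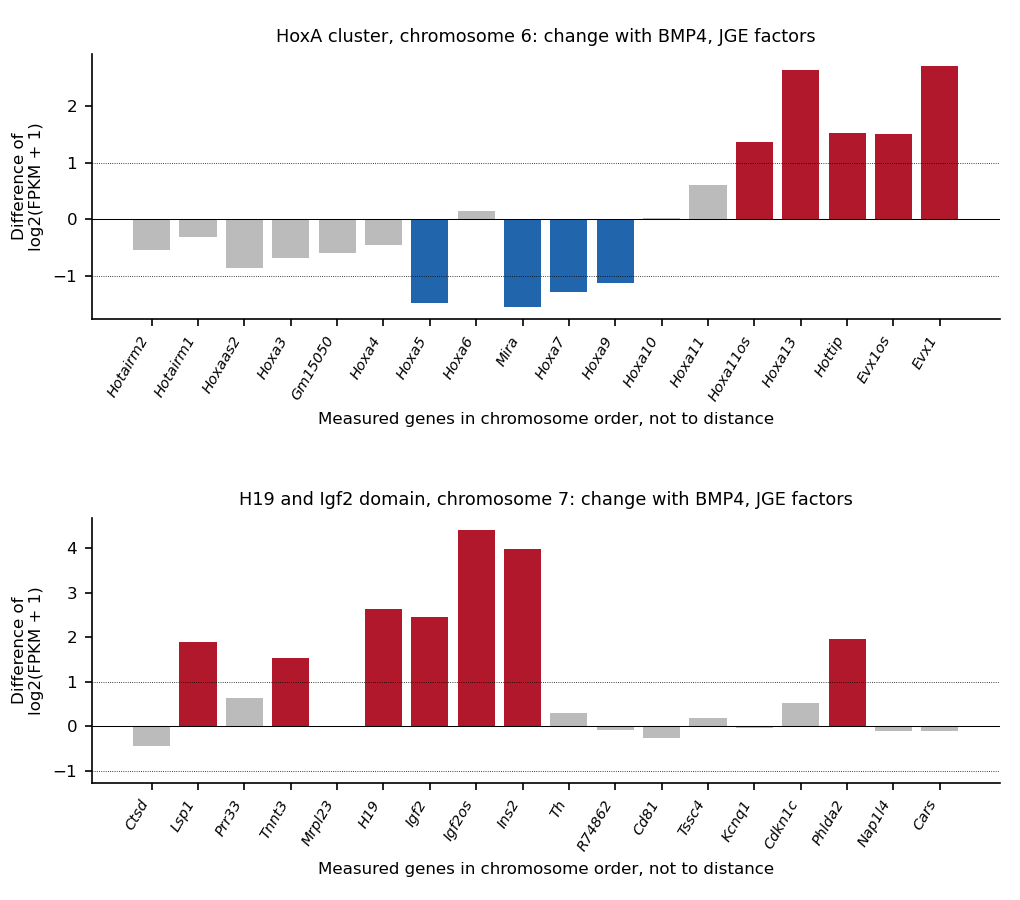
Bars give the difference of log2(FPKM + 1), BMP4+ minus BMP4−, for the measured genes of the HoxA cluster (top) and of the *H19* and *Igf2* domain (bottom), in chromosome order and not to distance; red bars rose, blue bars fell and dotted lines mark 1 and −1. *Hoxa5* to *Hoxa9* lie below 0, with *Hoxa6* at 0.15, and *Hoxa11os* to *Evx1* above 1; in the lower panel *H19* to *Ins2* lie between 2.45 and 4.41.

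The 15 largest rises among genes of at least 5 FPKM in either library were led by *Crygn*, a crystallin gene, which went from 0.625 to 48.4 FPKM. The unplaced row *LOC108167467* (7.31 to 190.0 FPKM), *Igf2os*, the hair follicle keratin gene *Krt71* (0.434 to 26.3 FPKM) and *Ins2* followed. *Slc16a3*, the lactate exporter MCT4, went from 2.14 to 38.1 FPKM and *Ccr7*, a chemokine receptor, from 1.56 to 26.8 FPKM. *Dkk1*, a secreted WNT inhibitor, went from 0.561 to 14.9 FPKM, and *Spink8*, *Rhof* and *Psors1c2* reached 20.6, 17.1 and 10.9 FPKM from under 0.8 FPKM.

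Several of the rises, strong and moderate, came in runs of neighbours that were looked up after their values had been seen. The demilune cell proteins *Dcpp1*, *Dcpp2* and *Dcpp3* on chromosome 17 went from 20.2 to 205 FPKM, from 66.2 to 597 FPKM and from 36.03 to 310 FPKM. They are near-identical copies, so the division of reads among them is uncertain. The crystallin genes *Crybb1* (5.92 to 58.3 FPKM) and *Cryba4* (0.723 to 8.44 FPKM) overlap on chromosome 5, so their reads may not have been separated. On the X chromosome *Rtl8a*, *Rtl8b* and *Rtl8c* went from 149 to 355 FPKM, from 152 to 375 FPKM and from 46.0 to 130 FPKM, and they too are close copies.

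*Tgfbi*, described above, was among the 15 largest falls. *Fbln5*, which organises elastic fibres, fell from 21.6 to 1.91 FPKM, *Spock1*, a proteoglycan, from 10.4 to 0.482 FPKM and *Igfbp6*, a binding protein for IGF2, from 14.8 to 1.36 FPKM. *Popdc2* (34.1 to 4.25 FPKM) and *Actc1*, cardiac actin (6.16 to 0.240 FPKM), are known from muscle; of the skeletal muscle list 3 genes were measured, 1 rose and 1 fell, against 3.69% and 4.36% of all genes. *Ccn5* fell from 33.1 to 4.38 FPKM, and the row *Wisp2*, an older name of the same gene, from 28.9 to 3.81 FPKM, so the 15 rows of these falls hold 14 genes. *Umod*, *Fam180a*, *Ccl20*, *Gsta3* and *Kcng4* fell to 1.91 FPKM or less from between 5.68 and 17.6 FPKM.

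Another of these falls, *Hba-a2*, is a globin gene of red cells. *Hba-a2* fell from 6.82 to 0.249 FPKM and its copy *Hba-a1* from 7.77 to 0.626 FPKM, and the 4 beta-type globin genes of the list were listed at 0 in both libraries. Macrophage genes were present on both sides: 10 of 11 measured were lower, none past the fold, with a median of −0.47. The summed FPKM of all 12 genes of this list went from 210.2 to 144. *Lyz2* was at 116 and 83.8 FPKM, *C1qa* at 17.5 and 10.2 FPKM and *Ptprc* at 0.171 and 0.107 FPKM. Both lists were lower together with the fibroblast matrix genes, and their part in those falls was not tested.

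Signalling genes of other pathways also differed. Of 16 WNT genes measured 4 rose and 2 fell, against 3.69% and 4.36% of all genes: *Wnt4* went from 20.4 to 76.4 FPKM, *Notum*, which inactivates WNT proteins, from 12.02 to 30.97 FPKM and *Rnf43* from 1.11 to 5.24 FPKM, beside *Dkk1*, while the inhibitors *Sfrp1* and *Sfrp2* fell, by 2.11 and 1.58. *Axin2*, a common target of β-catenin, was at 23.5 and 25.1 FPKM. Of 11 FGF and ERK feedback genes measured 2 fell and 1 rose, against 4.36% and 3.69% of all genes. *Spry1* (109.8 to 47.1 FPKM) and *Dusp6* (82.3 to 35.01 FPKM) fell and *Fgfr3* rose from 0.615 to 6.20 FPKM. *Dusp2* and *Dusp9*, outside the list and named after their values had been seen, rose from 0.584 to 8.78 FPKM and from 10.4 to 95.9 FPKM. Secreted WNT inhibitors thus moved in both directions, and so did the *Dusp* genes named here.

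Glycolysis, hypoxia and cell cycle genes were mostly higher by less than the fold. The shares over all genes were 3.69% for rises and 4.36% for falls. Of 15 glycolysis and hypoxia genes measured 12 were higher and 3 rose, with a median of 0.60: *Ldha* went from 210.1 to 596 FPKM, *Eno1* from 296 to 642 FPKM and *Bnip3* from 2.58 to 14.0 FPKM. *Vegfa*, a hypoxia target, was at 83.3 and 106 FPKM. Of 23 cell cycle genes 22 were higher, with a median of 0.44, and 1 rose (*Mcm3*, 15.4 to 32.5 FPKM). *Uhrf1* and *Dnmt3b*, of DNA methylation, rose from 16.6 to 37.3 FPKM and from 1.11 to 5.81 FPKM. Of 14 p53 and senescence genes 3 fell, *Ccng1* from 215 to 82.9 FPKM, *Gdf15* from 39.99 to 17.5 FPKM and *Cdkn2b* from 68.2 to 32.0 FPKM, and *Cdkn1a* was at 706.5 and 534 FPKM. In the interferon list 2 of 12 rose, *Isg15* and *Rsad2*, each by 1.20.

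Genes of the lineages the study follows went both ways or were not measured. The paper compared pluripotency and primitive endoderm genes with and without BMP4 in JGE as well as in the other factor sets. Of 20 pluripotency genes 7 were measured and 2 rose, with a median of 0.02 and against 3.69% of all genes. *Tdh* rose from 9.74 to 24.2 FPKM and *Lin28a*, measured only through the BMP4+ library, from 0.809 to 5.21 FPKM. Over all 20 genes the median was 0. *Nanog* was at 0.0818 FPKM and listed at 0, *Dppa5a*, *Tdgf1* and *Fgf4* were listed at 0 in both libraries, and *Sox2* was at 13.9 and 8.65 FPKM. Of 10 primitive endoderm (PrE) genes measured *Cited1* rose from 0.705 to 5.35 FPKM and *Sox17* from 0.0350 to 1.58 FPKM, both measured only through the BMP4+ library. *Gata6* fell from 7.48 to 3.11 FPKM, and the median was −0.16. Over all genes 3.69% rose and 4.36% fell. *Gata4* was under 0.5 FPKM in both. In the parietal endoderm list 3 of 10 fell (*Fst*, *Plat* and *Nid1*), and among 4 measured visceral endoderm genes none passed the fold. Of 6 trophoblast genes measured *Gata2* rose from 10.3 to 51.7 FPKM and *Plac1* from 3.39 to 10.8 FPKM, while *Cdx2* and *Elf5* were under 0.2 FPKM. *Sox17* and *Gata2* are expressed in endothelium too.

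Epithelial and keratinocyte genes gave no common direction. Among 14 epithelial genes measured *Krt7* alone passed the fold, falling from 2.78 to 0.397 FPKM (4.36% of all genes fell and 3.69% rose), and *Epcam* was at 1.53 FPKM in either library. Of 15 keratinocyte genes 5 were measured: *Krt5* rose from 0.0575 to 1.47 FPKM and *Krt15* from 0.329 to 3.01 FPKM, both measured only through the BMP4+ library, *Perp* fell from 46.9 to 17.05 FPKM, and *Krt14* was under 0.1 FPKM. In the adipocyte list *Lpl* and *Cd36* fell and *Zfp423* rose from 25.2 to 57.3 FPKM; in the neural list *Pax6* and *Map2* fell and *Tubb3* rose, from 3.36 to 8.57 FPKM. No gene of cholesterol synthesis passed the fold (15 measured, median −0.05).

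The same genes were then read in the other factor sets, each against its own BMP4− library. In JGES 9.77% of 15441 measured genes rose and 13.2% fell, in JGEO 1.73% of 14251 rose and 1.5% fell, and in JGESO 4.77% of 13071 rose and 3.09% fell. JGE thus had a larger share of rises than JGEO and a smaller one than JGESO and JGES, and a larger share of falls than JGEO and JGESO. Of the 472 JGE rises also measured in JGES, 199 (42.2%) rose there, against 8.78% of all genes measured in both, and they made up 17.1% of the JGES rises measured in both. A further 41 fell there (8.69%, against 8.71%). In JGEO 66 of 441 (14.97%, against 1.36%) and in JGESO 74 of 424 (17.5%, against 4.33%) rose as well, which was 36.7% and 14.2% of the rises of those sets that were measured in both. There 11 (2.49%, against 1.11%) and 21 (4.95%, against 2.14%) fell.

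The falls were read in the same way. Of 477 JGE falls measured in JGES, 97 (20.3%, against 8.71% of all genes) fell and 80 (16.8%, against 8.78%) rose. In JGEO 39 of 509 (7.66%, against 1.11%) fell and 12 (2.36%, against 1.36%) rose, and in JGESO 42 of 423 (9.93%, against 2.14%) fell and 47 (11.1%, against 4.33%) rose. Across all genes the changes were close to unrelated: Pearson's r and Spearman's rho between JGE and JGES were 0.12 and 0.01 over 13249 genes, between JGE and JGEO 0.08 and −0.07 over 13280, and between JGE and JGESO 0.03 and −0.05 over 12052. Genes of 1 library are not independent replicates, and the JGES libraries, quantified by the authors in 2 tables, differed between the tables by at most 0.44 on the log2 scale for a gene, which is the spread of quantification alone.

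Named members varied in how far they kept their direction. *Id1* went from 63.3 to 234 FPKM in JGES, from 81.1 to 60.1 FPKM in JGEO and from 339 to 334 FPKM in JGESO. *Bambi* and *Msx2* were higher with BMP4 in all 4 sets, *Bambi* by 2.42 in JGE and by 2.02, 0.82 and 1.97 in JGES, JGEO and JGESO, and *Msx2* by 2.99, 3.21, 1.20 and 1.82. The BMP-SMAD target list had medians of 1.19 in JGES, 0.09 in JGEO and 0.37 in JGESO, with 11, 2 and 3 genes that rose, against 9.77%, 1.73% and 4.77% of all genes. JGE and JGES, the sets without the *Oct4* virus, had the higher medians, and whether this follows the virus or the culture cannot be told apart with 1 library each.

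Endothelial genes were placed differently. Their medians were 1.42 in JGE and 1.22 in JGEO, with 8 rises each (against 3.69% and 1.73% of all genes), and 0.61 and 0.44 in JGES and JGESO, with 5 and 4 rises (against 9.77% and 4.77%). These medians cover 14 measured genes in JGE and in JGES and 12 in JGEO and in JGESO, so the members differ between sets. In JGEO *Cdh5* and *Tie1* (0.112 to 1.65 FPKM) were measured only through the BMP4+ library, which limits what the medians can compare. *Cdh5* rose in all 4 sets, from 4.60 to 12.3 FPKM in JGES, from 0.0154 to 2.37 FPKM in JGEO and from 1.82 to 5.77 FPKM in JGESO. *Cldn5* went from 8.56 to 40.2 FPKM in JGEO, and was at 28.8 and 30.5 FPKM in JGES and 25.1 and 21.3 FPKM in JGESO. *Sox18*, *Gja4* and *Egfl7* were at 10.3 FPKM or more without BMP4 in JGES and in JGESO, against 0.405 to 4.97 FPKM in JGE and JGEO. The sets with the *Sall4* virus thus started from higher levels of these genes.

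Matrix genes gave the opposite sign in JGES. *Col1a1* went from 19.7 to 353 FPKM in JGES and from 153 to 342 FPKM in JGESO, and from 151 to 82.3 FPKM in JGEO. The fibroblast matrix list had medians of 1.85 in JGES (15 of 19 rose, against 9.77% of all genes), −0.34 in JGEO and 0.73 in JGESO. The summed FPKM of the list went from 560 to 2348 in JGES, against 1827 to 1137 in JGE. *Tgfbi* was at 6.93 and 20.5 FPKM in JGES, and *Acta2* at 7.47 and 13.1 FPKM. None of these differences between sets could be tested.

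A small group of genes moved the same way everywhere. In all 4 sets 25 rows rose, with *Gm694* and *Srarp* as the same gene under 2 names, and 3 fell. For each set by itself, in the order JGE, JGES, JGEO and JGESO, rises made up 3.69%, 9.77%, 1.73% and 4.77% of genes measured. Falls made up 4.36%, 13.2%, 1.5% and 3.09%. Besides *H19*, *Igf2*, *Igf2os*, *Ins2*, *Dkk1*, *Krt71*, *Icam2*, *Cdh5*, *Tie1*, *Dlx3*, *Msx2* and *Six2*, those that rose included some named after their values had been seen: *Aldh1a3*, an enzyme of retinoic acid synthesis, at 3.41 and 22.5 FPKM in JGE, *Dusp2*, a phosphatase of MAP kinases, at 0.584 and 8.78 FPKM, *Trf*, transferrin, at 8.02 and 27.3 FPKM, and *Slc7a8* at 13.7 and 49.3 FPKM. The 3 that fell, named likewise, were *Cacng7* (4.74 to 1.74 FPKM), *Lrp3* (4.12 to 1.20 FPKM) and *Zic1*, a transcription factor of mesoderm and neural tissue (7.29 to 2.78 FPKM). *Ins2* went from 37.6 to 1184.6 FPKM in JGES, from 40.6 to 102 FPKM in JGEO and from 28.5 to 209 FPKM in JGESO.

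**Figure D5:**
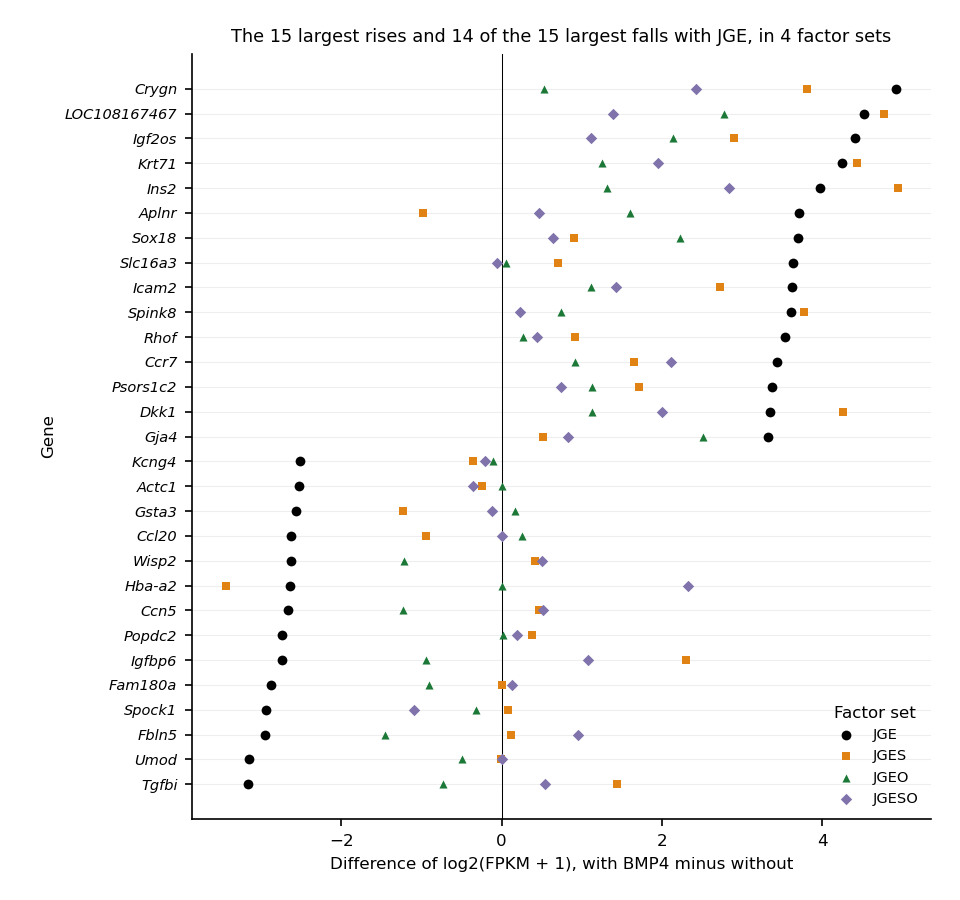
The difference of log2(FPKM + 1), BMP4+ minus BMP4−, in JGE (black circles), JGES (orange squares), JGEO (green triangles) and JGESO (purple diamonds) for the 15 largest rises and 14 of the 15 largest falls in JGE, 1 library per condition. All 15 rises but *Aplnr* in JGES (−0.98) and *Slc16a3* in JGESO (−0.06) are above 0 in every set, while the falls lie on both sides of 0 in the other sets, as *Igfbp6* at 2.30 in JGES.

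The promoters of the genes that fell were searched in the same way for the sites of AP-1 and TEAD factors. The AP-1 site TGANTCA, where N is any base, was in 10.9% of 450 fallen genes with an entry, in 7.10% of 352 risen genes and in 6.13% of all. GGAATG, the site of TEAD factors, was in 20.4% of the fallen, 12.8% of the risen and 14.3% of all, on either strand. Within the lists, the AP-1 site was in 0 of 7 TGF-β response genes and 1 of 11 fibroblast matrix genes with an entry, and GGAATG in 1 and 2 of them. Of the AP-1 genes themselves *Fosl1* fell from 8.86 to 3.28 FPKM and *Batf3* from 4.95 to 1.57 FPKM, and *Jun*, *Junb* and *Jund* did not reach the fold. These shares describe letters in a 300-base window and not binding.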

How the data were processed

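PolyA RNA of MEFs with JGE factors was sequenced at day 7, with 1 library with BMP4 and 1 without, with paired reads on an Illumina HiSeq platform. The authors trimmed reads with Trim Galore 0.6.4, aligned them to mm10 with HISAT2 2.2.1 and quantified genes with StringTie 2.2.1, per the submitters' processing notes, and deposited FPKM values for 8 libraries of 4 factor sets in 1 table, with gene symbols as row names. The annotation, the strand setting and the read counts are not given in the sources used here, so read depth is unknown and no count model was run; GFOLD, which the study used, needs counts. Summed FPKM was 413532 in the BMP4− and 419029 in the BMP4+ JGE library, and the 10 most abundant genes held 11.9% and 11.3% of it.

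Short RNAs were left out by name and RefSeq type (1439 rows). A change is the difference of log2(FPKM + 1), counted as a rise or fall at a size of 1 or more among genes with FPKM of at least 1 in either library. Genes named are the top 15 rises and the top 15 falls by size, of those reaching an FPKM of 5 in either library, and the members of 44 gene lists; others are said to have been named after their values were seen. The members and the lists were chosen with earlier results of these data known. Of the rows measured, 447 are older names of genes listed also under a present name, 31 of them past the fold. Positions and promoters are from RefSeq (GRCm38.p6). The calling step was tested on simulated data, and no result of that test is given or used here. Alternatives were another pseudocount, 2 scalings, other FPKM minimums, other sizes and 1 row per gene. Python 3.11.15, pandas 2.3.3, numpy 2.4.6 and matplotlib 3.10.9 were used. The single-cell, ATAC-seq and CUT&Tag samples, the RNA-seq of wild-type and delN12 SALL4 and the earlier days of JGES were not used here, and some genes of the lists and of the largest falls are not reported here. The day 7 JGES libraries also stand in a second deposited table, which served to compare quantifications.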

Additional observations from a re-analysis of the deposited data

Results flagged for a closer look

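These results are listed because genes past the fold in JGE passed it in the opposite direction in another factor set; none of these differences was tested, since there is 1 library per condition. Values are differences of log2(FPKM + 1), BMP4+ minus BMP4−, in the other set.

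Genes that fell in JGE and rose in JGES included matrix genes: *Col1a1* (4.10), *Col1a2* (3.72), *Col6a1* (2.19), *Col6a2* (1.83), *Lox* (2.03), *Fbln2* (1.38), *Nid1* (1.51) and *Tgfbi* (1.44). *Pmepa1* (1.31), *Igfbp6* (2.30), *Grem1* (1.42), *Fst* (1.42), *Spp1* (1.27), *Fosl1* (1.21), *Perp* (1.14) and *Krt7* (1.13) did the same. In JGESO, genes that had fallen in JGE rose by 2.48 (*Hba-a1*), 2.32 (*Hba-a2*), 1.76 (*Perp*), 1.59 (*Gdf6*), 1.27 (*Ccn1*), 1.15 (*Col1a1*), 1.11 (*Acta2*), 1.10 (*Cdkn2b*), 1.08 (*Igfbp6*) and 1.08 (*Nid1*), and in JGEO *Spp1* rose by 1.04.

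Other genes rose in JGE and fell elsewhere. In JGES *Tdh* changed by −1.42, *Uhrf1* by −1.30, *Mcm3* by −1.19 and *Hoxc9* by −1.04. In JGEO *Tubb3* changed by −1.62, *Lin28a* by −1.11 and *Hoxc9* by −1.08, and in JGESO *Tubb3* by −1.57. *Crybb1*, which is outside the lists and was named after its values had been seen, rose by 3.10 in JGE. In JGESO it changed by −2.34, from 30.4 to 5.19 FPKM. *Tubb3* was at 3.36 and 8.57 FPKM in JGE.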

How the results depend on the processing

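No paired analysis of the JGE response was possible because each condition has 1 library and the labels give no replicate numbers to share. For the same reason no library could be left out. A BMP4 effect shared by the factor sets, with each set as a pair, was not tested. With a pseudocount of 0.1 in place of 1, 859 genes rose and 1238 fell, in place of 525 and 621. The medians of BMP ligands, endothelial and HOX genes were then −0.63, 2.76 and −0.83. Medians of other lists could also shift by more than 0.1. With this pseudocount BMP-SMAD target genes went from 1.39 to 1.80 and osteoblast genes from 1.45 to 1.94. Osteoblast genes were at 1.02 with FPKM rescaled to the same sum. TGF-β response genes went from −0.91 to −1.24 with FPKM of at least 5. With FPKM rescaled to the same sum in each library, 853 rose and 1207 fell, and the medians were −0.57 for BMP ligands, 0.17 for pluripotency, −0.32 for trophoblast, 2.19 for endothelial, 0.36 for adipocyte and 0.92 for neural genes. Without a filter on low values the counts could not change, because a difference of 1 needs an FPKM of at least 1 in 1 of the libraries. The medians without this filter were −0.087 for trophoblast, 0.13 for osteoblast, 0.15 for cartilage, 0.13 for adipocyte, 0.22 for neural and 0.046 for WNT genes. The main medians of trophoblast and adipocyte genes were 0.08 and −0.03, so their sign changed with the scaling and with the filter. With FPKM of at least 5, 349 genes rose, and the medians were −0.20 for BMP ligands, −0.74 for BMP antagonists, 2.29 for endothelial and 0.37 for adipocyte genes. At a size of 0.5, 1690 rose and 2524 fell, and at a size of 2, 98 and 55. With the libraries set to the same median ratio 569 rose and 576 fell, 49.7% rises among the calls against 45.8%, and all 37 list medians tried stayed within the tolerance of 0.1, that of adipocyte genes passing from −0.03 to 0.01. A smaller pseudocount and a larger common sum both weaken the pseudocount by construction; for the other shifts the cause was not tested. Of the 30 largest changes, 7 moved in size under the smaller pseudocount; changes of that size could not reverse under these settings. Read depth is unknown, so the precision of genes at low FPKM is unknown too. One row per gene, chosen after seeing the data, gave 510 rises and 605 falls.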
